A study of Mus musculus with 60 samples.

Results

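A set of 8 transcripts listed as segmentation clock genes, of the 117135 in the deposited tables, was followed through the tailbuds of 27 single mouse embryos. The members were chosen as a named list, by transcript identifier, and all 8 were found and passed the filter on low counts in every comparison. The list pairs the identifiers with the symbols Hes7, Hes1, Lfng, Axin2, Dusp6, Snai1, Dll1 and Notch1. The tables of gene names at hand hold no transcript identifier of this kind, so that pairing could not be checked, and each symbol below is the listed one. The tailbud is the tissue at the tail end of the embryo from which the body axis elongates. RNA sequencing libraries were made from 16 wild-type embryos (WT), 4 each at 12, 13, 14 and 16 somites, and from 11 mutants (MUT), 2 each at 12, 13 and 14 somites and 5 at 16. The design text gives the mutation as JARID2 K116R, a lysine-to-arginine substitution in an accessory subunit of Polycomb repressive complex 2, and the sample labels do not say whether mutants carry 1 or 2 copies. The labels name no strain, litter, sex or hour of dissection. The other 33 samples of the series, from embryonic stem cells, were not analysed here.

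Somites, the blocks of tissue that become vertebrae and muscle, are cut off one after another from the presomitic mesoderm of the tailbud. A molecular oscillator, the segmentation clock, times each cut: genes of the Notch, Wnt and FGF pathways are switched on and off in waves that sweep the presomitic mesoderm once per somite. In the Notch branch the ligand Dll1 on one cell activates the receptor Notch1 on its neighbour, Notch switches on Hes7 and Lfng, and the Hes7 protein represses its own gene and Lfng. Axin2 is a target and inhibitor of Wnt signalling, Dusp6 a target and inhibitor of FGF signalling, and Snai1, a repressor of epithelial genes, has been placed with the FGF branch. A library of one tailbud averages over all its cells, so fewer cells of a type and less RNA per cell cannot be told apart in any value below.

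Promoter sequence of 7 of the 8 listed genes was held by the RefSeq table (GRCm38.p6), and Hes1 had no entry. The 250 bases before the annotated start are shown for Hes7 and Notch1, whose listed transcripts varied together most closely, and for Lfng, whose listed transcript was the most variable of the 8. They belong to the genes of those symbols, 5′ to 3′ on the gene's strand. Hes7 lies on the plus strand at chr11:69120203-69120452, Lfng on the plus strand at chr5:140607091-140607340 and Notch1 on the minus strand at chr2:26503823-26504072. Capitals mark matches, on either strand, to the core of the RBPJ site, through which Notch acts on DNA (TGGGAA), to the N-box that Hes proteins can bind (CACNAG) and to the E-box (CACGTG).
Hes7: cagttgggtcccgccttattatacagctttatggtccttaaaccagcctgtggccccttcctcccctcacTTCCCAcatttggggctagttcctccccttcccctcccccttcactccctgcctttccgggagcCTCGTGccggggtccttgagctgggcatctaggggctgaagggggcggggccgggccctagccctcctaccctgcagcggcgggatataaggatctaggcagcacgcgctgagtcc
Notch1: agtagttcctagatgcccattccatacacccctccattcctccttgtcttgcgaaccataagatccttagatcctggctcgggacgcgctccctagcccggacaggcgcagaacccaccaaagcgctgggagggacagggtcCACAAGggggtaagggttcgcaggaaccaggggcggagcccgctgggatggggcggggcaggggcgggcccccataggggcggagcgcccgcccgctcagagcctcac
Lfng: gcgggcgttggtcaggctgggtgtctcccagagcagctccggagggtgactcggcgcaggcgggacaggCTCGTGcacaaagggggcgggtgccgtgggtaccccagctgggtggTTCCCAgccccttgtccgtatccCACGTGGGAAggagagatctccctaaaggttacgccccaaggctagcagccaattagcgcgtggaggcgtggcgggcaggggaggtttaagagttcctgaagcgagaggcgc
The Hes7 window held 1 RBPJ core and 1 N-box, and the Notch1 window 1 N-box. The Lfng window held 2 RBPJ cores, 1 N-box and 1 E-box, and the E-box overlaps the second RBPJ core. Of 32851 promoter windows of the same length in the table, 21.6% held an RBPJ core, 36.7% an N-box and 6.02% an E-box. The TCF/LEF core CTTTGA, through which Wnt acts, was in 13.8% of windows and in none of the 3 shown. Among the genes not shown, the windows of Axin2, Dusp6 and Dll1 held none of these motifs, and that of Snai1 held only 1 N-box. These matches are descriptions of the letters and not measured binding sites.

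The embryos had similar depth. Total estimated counts ran from 20908470 to 27090684 per library, and the estimated count of a member in a single embryo ranged from 89 (listed as Lfng) to 16091 (listed as Hes1). No pair of libraries of a group looked like one library deposited under 2 names: over 37 pairs the lowest chi-square of their counts per degree of freedom was 12.0. In the group of 5 mutants at 16 somites, embryo 1 stood apart, with a mean correlation to its group of 0.836 against 0.874 to 0.878 for the other 4. The wild-type embryo 4 at 14 somites did so less, at 0.864 against 0.88 to 0.885. Their effect is given beside the results named below. Markers of the tailbud and of other cell types could not be matched to transcripts, so the tissue label was not checked against them.

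Levels are given as TPM, the abundance of a transcript relative to all others in its library, scaled by length so that transcripts can be compared. ENSMUST00000023171 (listed as Hes1) was the most abundant of the 8 at a mean of 284 ± 82.0 TPM (SD, n = 27). It was followed by ENSMUST00000024543 (listed as Hes7) at 44.6, ENSMUST00000020118 (listed as Dusp6) at 32.9, ENSMUST00000014917 (listed as Dll1) at 11.9 and ENSMUST00000052915 (listed as Axin2) at 9.51 TPM. The lowest means were those of ENSMUST00000052631 (listed as Snai1) at 9.39, ENSMUST00000031555 (listed as Lfng) at 5.29 and ENSMUST00000028288 (listed as Notch1) at 1.66 TPM. The steps from Hes1 to Hes7, from Dusp6 to Dll1 and from Lfng to Notch1 had the same order in all 27 embryos, and that from Snai1 to Lfng in 26. The Hes7-listed transcript was above the Dusp6-listed one in 15 embryos, Dll1 above Axin2 in 19 and Axin2 above Snai1 in 16, so these neighbours were not separated beyond the spread between embryos.

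**Figure D1:**
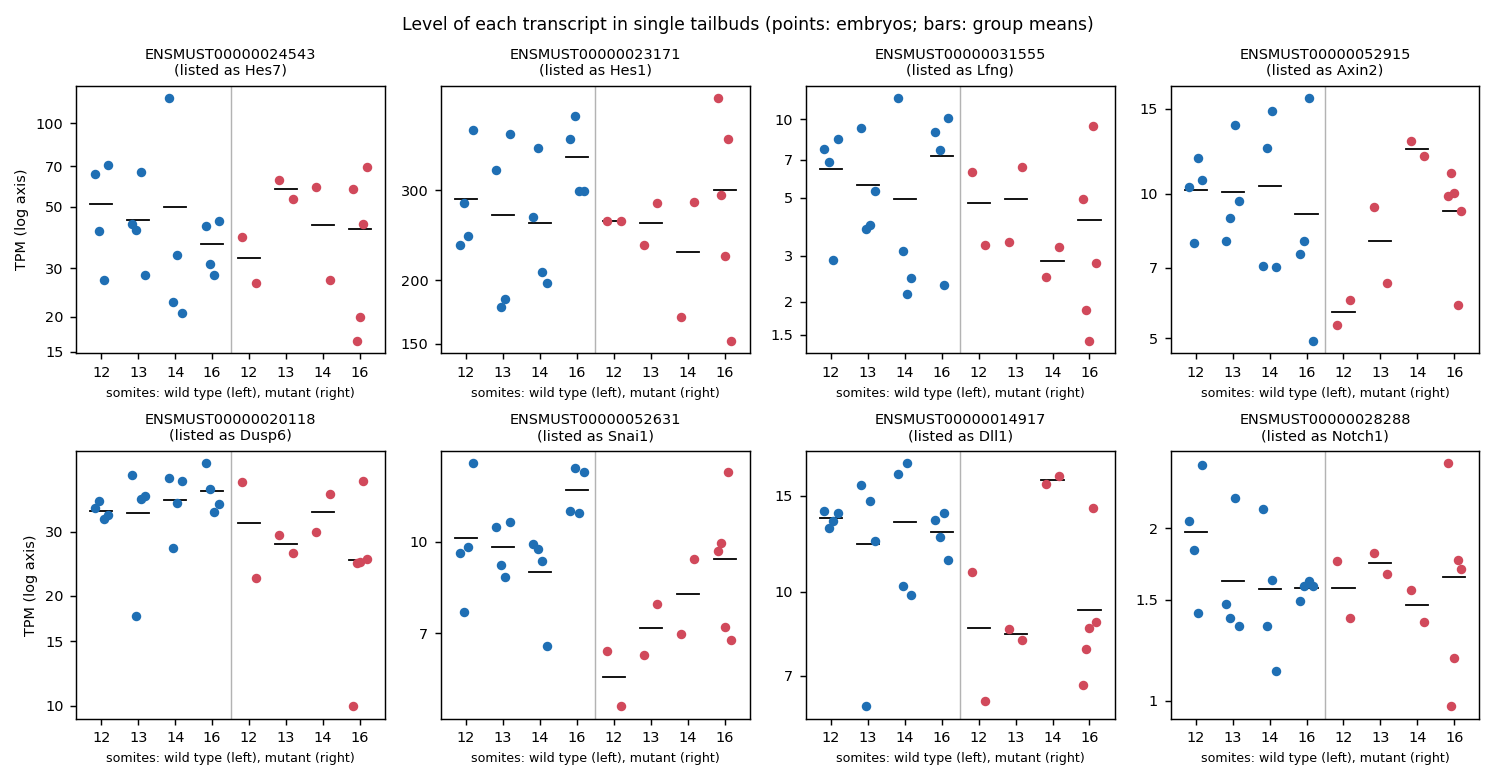
Level of each transcript in TPM (log axis) in every embryo, by somite number, with wild-type embryos in blue on the left and mutants in red on the right; points are single embryos and bars are group means. For the Hes7-listed transcript, embryos of one group can be spread as widely as the groups are from each other. It runs from 20.7 to 123 TPM among 4 wild-type embryos at 14 somites. For the Dll1-listed transcript some groups are tight and apart. Mutants lie at 8.14 to 8.53 TPM at 13 somites and at 15.8 to 16.3 TPM at 14.

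The effector of the Notch branch, ENSMUST00000024543 (listed as Hes7), varied 7.54-fold between the lowest and the highest of the 27 tailbuds. In wild type it was at 65.7, 40.9, 27.2 and 70.8 TPM at 12 somites and at 43.1, 41.0, 66.7 and 28.3 TPM at 13. Wild-type embryos had 123, 22.6, 33.4 and 20.7 TPM at 14 somites and 42.7, 31.0, 28.4 and 44.4 TPM at 16. One embryo at 14 somites was thus far above its 3 groupmates, while the 4 at 16 somites lay close together. Mutants had 38.9 and 26.6 TPM at 12 somites, 62.6 and 53.2 at 13, 58.7 and 27.3 at 14 and 58.0, 16.4, 19.9, 43.3 and 69.3 TPM at 16. The 5 mutants at 16 somites spread wider than the 4 wild-type embryos of that stage, with 2 of them below and 2 above all 4.

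ENSMUST00000031555 (listed as Lfng), for a glycosyltransferase that modifies Notch receptors, varied 8.52-fold, at a lower level. Wild-type embryos had 7.67, 6.88, 2.88 and 8.39 TPM at 12 somites and 9.28, 3.81, 3.95 and 5.32 TPM at 13. At the later stages they had 12.1, 3.13, 2.14 and 2.48 TPM at 14 somites and 8.95, 7.60, 2.32 and 10.1 TPM at 16. In TPM the same wild-type embryo at 14 somites was highest for this transcript and for the Hes7-listed one. Among mutants it was at 6.27 and 3.30 TPM at 12 somites, 3.39 and 6.55 at 13, 2.50 and 3.26 at 14 and 4.94, 1.86, 1.42, 9.44 and 2.83 TPM at 16. The lowest and the highest mutant were both at 16 somites. In TPM only 2 mutants lay outside the wild-type range, both below it. On log2 CPM, a measure of counts relative to library size, only mutant embryo 3 at 16 somites (1.96) did so, below the lowest wild-type embryo (2.15).

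The receptor transcript ENSMUST00000028288 (listed as Notch1) varied over a narrower range, 2.66-fold. In wild type it had 2.06, 1.84, 1.42 and 2.58 TPM at 12 somites, 1.48, 1.40, 2.26 and 1.35 at 13, 2.16, 1.35, 1.62 and 1.13 at 14 and 1.49, 1.59, 1.62 and 1.59 TPM at 16. In mutants it had 1.76 and 1.40 TPM at 12 somites, 1.81 and 1.66 at 13, 1.56 and 1.37 at 14 and 2.60, 0.98, 1.19, 1.76 and 1.70 TPM at 16. In TPM both the lowest and the highest of all 27 values came from mutants at 16 somites. On log2 CPM the lowest was wild-type embryo 4 at 14 somites (3.13), below mutant embryo 2 at 16 somites (3.59). The ligand transcript ENSMUST00000014917 (listed as Dll1) had 14.0, 13.1, 13.5 and 13.9 TPM in wild type at 12 somites, 15.7, 6.15, 14.7 and 12.4 at 13, 16.5, 10.3, 17.2 and 9.85 at 14 and 13.5, 12.6, 14.0 and 11.4 TPM at 16. Its mutants had 10.9 and 6.30 TPM at 12 somites, 8.53 and 8.14 at 13, 15.8 and 16.3 at 14 and 6.74, 7.85, 8.56, 14.2 and 8.79 TPM at 16. In TPM both mutants at 12 somites were below all 4 wild-type embryos, as were 11.8% of all tested transcripts. At 16 somites 4 of 5 were below all 4. The same held at 16 somites in TPM for the transcripts listed as Dusp6 and Snai1, and the share of all transcripts was not computed. At 14 somites both mutants were within the wild-type range of the Dll1-listed transcript in TPM. On log2 CPM mutant embryo 2 at 14 somites (5.93) was above that range (highest 5.83).

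ENSMUST00000023171 (listed as Hes1), a repressor of the same family as Hes7, varied 3.01-fold between the lowest and the highest embryo. Wild-type embryos had 234, 284, 244 and 394 TPM at 12 somites, 328, 177, 183 and 387 at 13, 266, 363, 208 and 197 at 14 and 379, 420.2, 299 and 299 TPM at 16. Mutants had 261 and 261 TPM at 12 somites, 234 and 283 at 13, 169 and 285 at 14 and 456, 294, 223, 378 and 152 TPM at 16. In TPM the 2 mutants at 12 somites were as good as equal, and the 5 at 16 somites enclosed the whole wild-type range. On log2 CPM those at 12 somites were at 8.50 and 8.77. The lowest mutant at 16 somites (7.886) was then above wild-type embryo 4 at 14 somites (7.625) and wild-type embryo 3 at 13 somites (7.667). ENSMUST00000052631 (listed as Snai1) was at 9.56, 7.62, 9.81 and 13.6 TPM in wild type at 12 somites, 10.6, 9.13, 8.73 and 10.8 at 13, 9.94, 9.71, 9.29 and 6.67 at 14 and 11.3, 13.4, 11.2 and 13.1 TPM at 16. Mutants had 6.53 and 5.26 TPM at 12 somites, 6.42 and 7.85 at 13, 6.98 and 9.35 at 14 and 9.64, 9.98, 7.18, 13.1 and 6.82 TPM at 16. In TPM both mutants at 12 somites and both at 13 were below all wild-type embryos of their stage, as were 11.8% and 6.6% of all tested transcripts. At 12 somites the same held for 3 of the 8, listed as Axin2, Snai1 and Dll1, and at 13 for Snai1 alone of the 8. On log2 CPM this held at 12 somites but not at 13, where mutant embryo 2 (3.85) was above wild-type embryo 3 (3.56).

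The FGF target ENSMUST00000020118 (listed as Dusp6) was even between most wild-type embryos. They had 34.8, 36.5, 32.5 and 33.3 TPM at 12 somites, 43.0, 17.6, 37.0 and 37.6 at 13, 42.2, 27.0, 35.9 and 41.4 at 14 and 46.3, 39.4, 34.0 and 35.7 TPM at 16. Mutants had 41.0 and 22.4 TPM at 12 somites, 29.4 and 26.2 at 13, 30.0 and 38.0 at 14 and 9.95, 24.6, 24.8, 41.2 and 25.2 TPM at 16. The lowest value, 9.95 TPM, was that of mutant embryo 1 at 16 somites, one of the 2 embryos that stood apart. The Wnt target ENSMUST00000052915 (listed as Axin2) had 10.3, 7.89, 11.9 and 10.7 TPM in wild type at 12 somites, 7.95, 8.89, 13.9 and 9.63 at 13, 7.08, 12.4, 14.8 and 7.03 at 14 and 7.47, 7.98, 15.8 and 4.93 TPM at 16. In mutants it had 5.33 and 6.00 TPM at 12 somites, 9.37 and 6.52 at 13, 12.8 and 12.0 at 14 and 9.88, 11.0, 10.0, 5.85 and 9.20 TPM at 16. In TPM the lowest and the highest wild-type embryo for the Axin2-listed transcript were both at 16 somites. On log2 CPM the lowest was wild-type embryo 4 at 14 somites (4.57), just below wild-type embryo 4 at 16 somites (4.62).

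Spread between embryos was measured as the SD of log2 CPM (counts relative to library size, scaled with TMM factors and not by length) around the means of the 8 groups of genotype and stage, with 19 degrees of freedom. ENSMUST00000031555 (listed as Lfng) had an SD of 0.905 log2 units, ENSMUST00000024543 (listed as Hes7) 0.755, ENSMUST00000023171 (listed as Hes1) 0.522 and ENSMUST00000052915 (listed as Axin2) 0.458. The SDs of ENSMUST00000028288 (listed as Notch1), ENSMUST00000020118 (listed as Dusp6), ENSMUST00000052631 (listed as Snai1) and ENSMUST00000014917 (listed as Dll1) were 0.38, 0.376, 0.341 and 0.327. Counting alone would give an SD between 0.015 (Hes1) and 0.095 (Lfng), so counting noise was a small part of each. By this measure, which is not adjusted for level, the widest of the 8 were the transcripts listed as Lfng and Hes7.

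Low transcripts vary more than abundant ones, so each SD was set beside those of tested transcripts within 0.5 log2 units of its mean level. The Hes7-listed transcript was wider than 99.1% of 1474 such transcripts, whose median SD was 0.194. Hes1 was wider than 98.6% of 367, Axin2 than 94.5% of 2117, Dusp6 than 93.5% of 1305 and Lfng than 93.2% of 3408. The percentiles of Dll1, Notch1 and Snai1 were 84.5, 77.9 and 67.2. By the rule that a wide spread exceeds 90% of transcripts of like level, 5 of the 8 were wide, and the same rule marked 13% of the 24398 transcripts at a mean of at least 1 CPM. All 8 were above the median of their level. Without mutant embryo 4 at 16 somites 4 of the 8 were wide, and on log2(TPM + 1) also 4, with Axin2 at a percentile of 74.6.

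**Figure D2:**
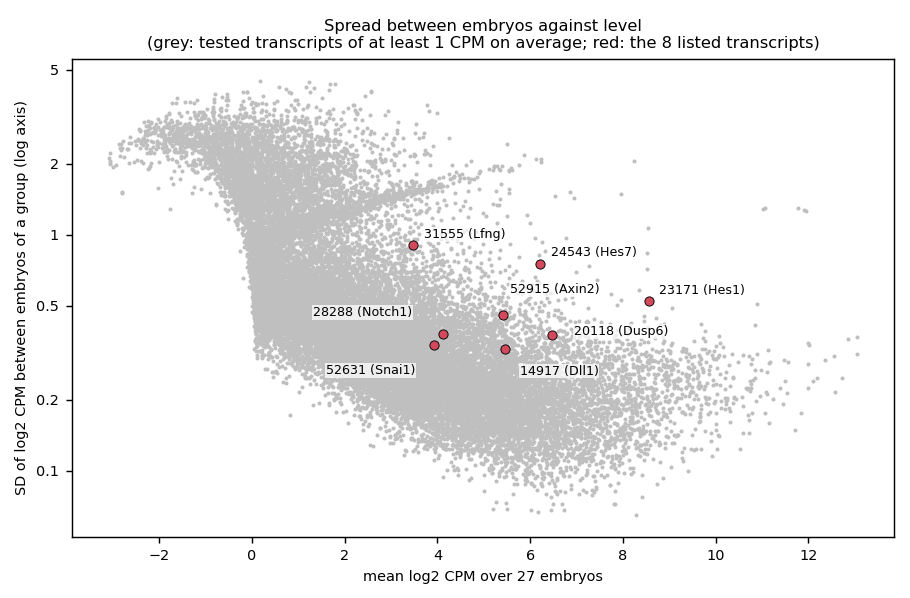
SD of log2 CPM between embryos of a group (log axis) against mean log2 CPM over 27 embryos; grey points are the 24398 tested transcripts at a mean of at least 1 CPM, red points the 8 listed transcripts, named by the last digits of their identifiers. The Hes7-listed and Hes1-listed points lie near the upper edge of the transcripts of their level, and the Snai1-listed point lies within the cloud.

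The share of the variation of log2 CPM that lies within groups would be near 73.1% with no difference between groups, and its median over the 24398 transcripts was 70.01%. It was 89.1% for ENSMUST00000024543 (listed as Hes7), 78.6% for ENSMUST00000031555 (listed as Lfng), 77.9% for ENSMUST00000052915 (listed as Axin2) and 74.3% for ENSMUST00000023171 (listed as Hes1). It was 76.0% for ENSMUST00000028288 (listed as Notch1), 75.9% for ENSMUST00000020118 (listed as Dusp6) and 60.3% for ENSMUST00000014917 (listed as Dll1). ENSMUST00000052631 (listed as Snai1) had the lowest share, 51.1%. A higher share than that of the Hes7-listed transcript was found for 3.89% of the transcripts, and a higher one than that of the Snai1-listed transcript for 89.6%. The spread was also computed within each genotype. The Hes7-listed transcript had an SD of 0.743 in wild type (12 degrees of freedom) and 0.775 in mutants (7 degrees of freedom), and the Lfng-listed one 0.902 and 0.91. For Hes1 the SDs were 0.48 and 0.587, for Snai1 0.336 and 0.349, and for Dll1 0.347 and 0.288. Dusp6 had 0.263 in wild type and 0.515 in mutants, Notch1 0.325 and 0.458, and Axin2 0.512 and 0.348. Without the 2 embryos that stood apart, the SD over all embryos was 0.29 for Dusp6 and 0.252 for Notch1. The difference in spread between genotypes was not tested.

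Co-variation between embryos was examined as the Pearson correlation of these deviations from the group means, for the 28 pairs of the 8 transcripts, with a two-sided permutation test within groups and Benjamini-Hochberg adjustment over the 28 pairs. Of these, 3 pairs passed an adjusted p of 0.05, and all 3 correlations were positive. The share of the 24397 other transcripts at a mean of at least 1 CPM with a correlation at least as large in size as the weakest called pair, 0.677, was 0.242% for Hes7, 0.324% for Hes1, 0.0902% for Lfng and 0.23% for Axin2. It was 7.8% for Dusp6, 0.746% for Snai1, 0.484% for Dll1 and 2.42% for Notch1. At an unadjusted p under 0.05 there were 9 pairs. Of the 28 correlations 20 were above 0 and 8 below, with a median of 0.245. These signs depended in part on few embryos. Without the 2 embryos that stood apart, 20 of the 28 pairs kept their sign. That of Hes1 with Notch1 went from 0.339 to -0.156. All correlations were taken over the same 27 libraries, so the pairs are not independent of each other.

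**Figure D3:**
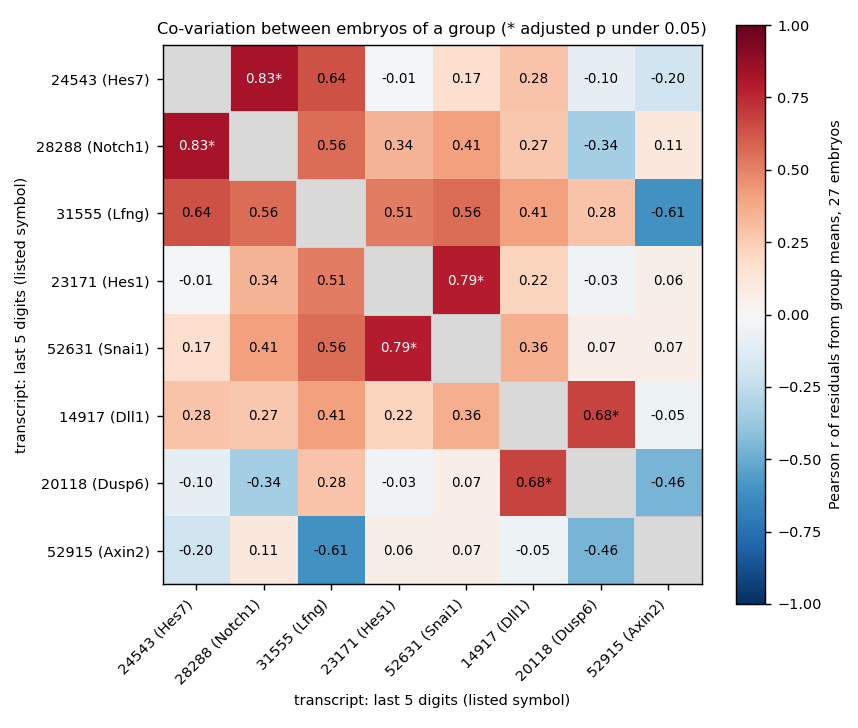
Pearson r of the deviations from group means over 27 embryos for each pair of the 8 transcripts, named by the last digits of their identifiers and their listed symbols; red is positive, blue negative and an asterisk marks an adjusted p under 0.05. The 3 marked pairs are Hes7 with Notch1 (0.83), Hes1 with Snai1 (0.79) and Dusp6 with Dll1 (0.68), and the strongest negative value is that of Lfng with Axin2 (-0.61).

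The closest pair joined the receptor and the effector of the Notch branch. ENSMUST00000024543 (listed as Hes7) and ENSMUST00000028288 (listed as Notch1) had r = 0.827 (permutation p = 0.00026, adjusted p = 0.0036) and Spearman's rho = 0.78 (permutation p = 0.00023, adjusted p = 0.0032). They lay on the same side of their group means in 21 of 27 embryos. In the groups of 2 mutants the deviations mirror each other, so both embryos always count alike, here and in the like counts below. Wild-type embryo 4 at 14 somites and mutant embryos 2 and 3 at 16 somites were the 3 lowest for both transcripts. Wild-type embryo 1 at 14 somites and mutant embryo 1 at 16 somites were among the 3 highest for both. Of the 24397 other transcripts the Notch1-listed one had the largest positive correlation with the Hes7-listed one, though the next values, 0.825 and 0.821, were as good as equal to it. For the Notch1-listed transcript the Hes7-listed one ranked 6 from the highest, where the largest value was 0.84. The most negative correlation of the Notch1-listed transcript was -0.885, larger in size than 0.827. The correlation of the pair was 0.846 in wild type and 0.824 in mutants, and 0.808 without the 2 embryos farthest from the median of the Hes7-listed transcript. Without the 2 embryos that stood apart it was 0.84, and it passed the threshold in each of the 27 fits that left out 1 embryo, with r from 0.792 to 0.857.

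The next pair joined the more abundant repressor of the Hes family to the Snai1-listed transcript. For ENSMUST00000023171 (listed as Hes1) and ENSMUST00000052631 (listed as Snai1), r was 0.788 (permutation p = 0.00011, adjusted p = 0.0031) and rho 0.822 (permutation p = 5e-05, adjusted p = 0.0014). In 20 of 27 embryos both were on the same side of their group means. Mutant embryos 3 and 5 at 16 somites, wild-type embryo 3 at 13 somites and wild-type embryo 4 at 14 somites were among the 5 lowest for both. The correlation was 0.736 in wild type and 0.863 in mutants, 0.778 without the 2 embryos farthest from the median of the Hes1-listed transcript and also 0.778 without the 2 that stood apart. It passed in each of the 27 leave-outs, with r from 0.76 to 0.824. Among the other transcripts, 0.016% correlated as strongly with the Hes1-listed one and 0.012% with the Snai1-listed one.

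ENSMUST00000020118 (listed as Dusp6) and ENSMUST00000014917 (listed as Dll1) were the third pair, with r = 0.677 (permutation p = 0.0021, adjusted p = 0.02) and rho = 0.688 (permutation p = 0.0025, adjusted p = 0.024). Both transcripts were on the same side in 18 of 27 embryos, both highest in mutant embryo 4 at 16 somites and both low in wild-type embryo 2 at 13 somites. The correlation was 0.696 in wild type, 0.786 in mutants, 0.655 without the 2 embryos farthest from the median of the Dusp6-listed transcript and 0.889 without the 2 embryos that stood apart. It no longer passed without wild-type embryo 1, 2 or 4 at 13 somites, with r = 0.645, 0.577 and 0.672. Deviations of the Dusp6-listed transcript also went with the total count of the library (r = 0.685, permutation p = 0.0069, adjusted p = 0.056 over the 8 transcripts, rho = 0.531, permutation p = 0.013). That r was 0.451 without the 2 most distant totals, and for Dll1 it was 0.425 (permutation p = 0.058, adjusted p = 0.23, rho = 0.393). For the other 6 transcripts it lay between -0.35 (Notch1) and -0.011 (Hes1). The part of depth in the pair was not tested. Many other transcripts followed the Dusp6-listed one as closely, 7.8% of them, against 0.48% for Dll1.

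**Figure D4:**
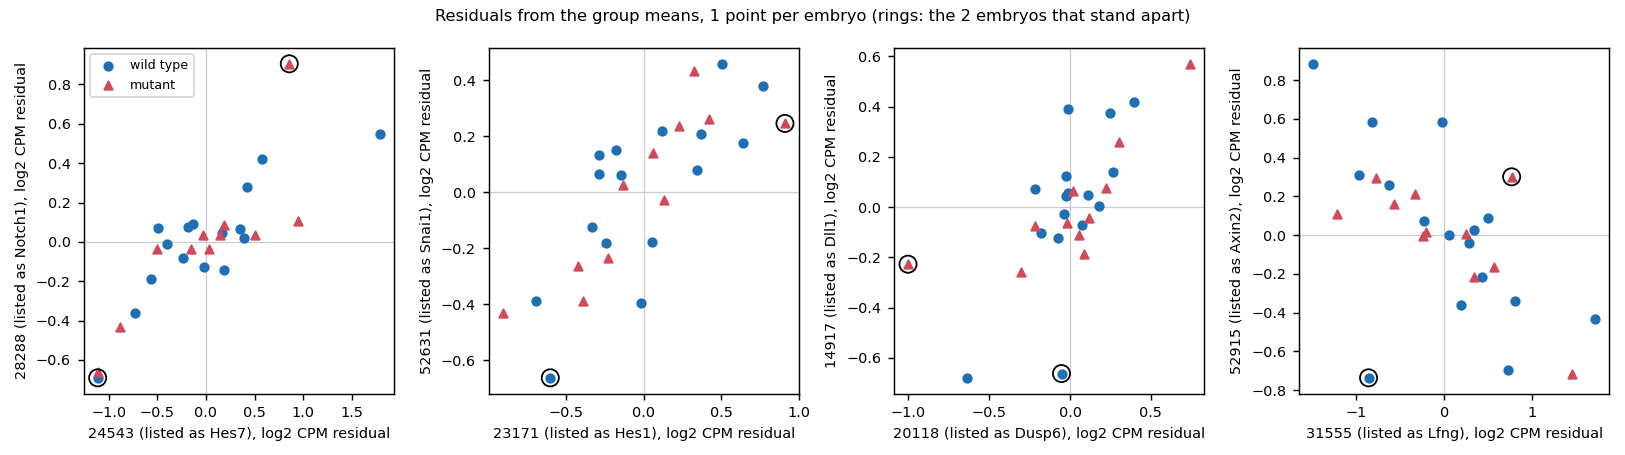
Deviations from the group means in log2 CPM for 4 pairs of transcripts, named by the last digits of their identifiers; each point is an embryo, blue circles wild type and red triangles mutants, and rings mark the 2 embryos that stood apart. The first 3 panels slope upwards (r = 0.827, 0.788 and 0.677) and the last, Lfng against Axin2, slopes downwards (-0.608).

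The transcript of the Notch modifier and that of the Wnt inhibitor moved in opposite directions without passing the threshold. ENSMUST00000031555 (listed as Lfng) and ENSMUST00000052915 (listed as Axin2) had r = -0.608 (permutation p = 0.014, adjusted p = 0.069) and rho = -0.584 (permutation p = 0.009, adjusted p = 0.036). They lay on opposite sides of their group means in 20 of 27 embryos. At 16 somites wild-type embryo 3 had the lowest Lfng and the highest Axin2 value of its group, while wild-type embryo 4 and mutant embryo 4 had the reverse. The correlation was -0.595 in wild type, -0.674 in mutants and -0.601 without the 2 embryos farthest from the median of the Lfng-listed transcript. Without the 2 embryos that stood apart it was -0.896 (permutation p = 6e-05, adjusted p = 0.0011), and it also passed on log2(TPM + 1), at -0.727 (adjusted permutation p = 0.0056), and on variance-stabilised counts, at -0.655. Without 16 somites it was -0.44 and did not pass. Of the 27 fits that left out 1 embryo it passed in 2, without wild-type embryo 4 at 14 somites (-0.816) and without mutant embryo 1 at 16 somites (-0.669). Over the alternatives its adjusted p ran from 0.0011 to 0.58.

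ENSMUST00000031555 (listed as Lfng) had 4 of the other 5 pairs with an unadjusted p under 0.05. With Hes7 its r was 0.636 (permutation p = 0.01, adjusted p = 0.069), with Snai1 0.558 (permutation p = 0.02, adjusted p = 0.078), with Hes1 0.51 (permutation p = 0.03, adjusted p = 0.098) and with Notch1 0.556 (permutation p = 0.031, adjusted p = 0.098). The r with Hes7 fell to 0.468 without the 2 embryos farthest from the median of the Hes7-listed transcript. By Spearman's rho the pairs with Hes7 (0.58), Hes1 (0.576) and Snai1 (0.604) passed, each with a permutation p adjusted to 0.036, and that with Notch1 (0.458) did not. With Dusp6 its r was 0.284 over all embryos (adjusted permutation p = 0.51) and 0.614 without the 2 that stood apart (adjusted permutation p = 0.012). The fifth pair was ENSMUST00000052915 (listed as Axin2) with ENSMUST00000020118 (listed as Dusp6), at -0.461 (permutation p = 0.015, adjusted p = 0.069) over all embryos. This pair passed without the 2 embryos that stood apart, at -0.557 (adjusted permutation p = 0.02), and on variance-stabilised counts, at -0.511 (adjusted permutation p = 0.035), and its adjusted p over the alternatives ran from 0.02 to 0.41. The Axin2-listed transcript and Hes7 had r = -0.198 over all embryos and -0.532 without the 2 that stood apart, and passed in neither. ENSMUST00000024543 (listed as Hes7) and ENSMUST00000023171 (listed as Hes1), of one protein family, had r = -0.013 (permutation p = 0.96, adjusted p = 0.96). Without the 2 embryos that stood apart it was -0.358 (adjusted permutation p = 0.34). ENSMUST00000014917 (listed as Dll1) and the Axin2-listed transcript had r = -0.051 over all embryos, 0.248 in wild type and -0.963 in mutants, and the difference between genotypes was not tested.

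Mutant and wild-type tailbuds were then compared with edgeR's quasi-likelihood test over all 45394 tested transcripts, with stage as a factor. Levels are again in TPM, and fold changes are of counts scaled by TMM factors. None of the 8 passed a Benjamini-Hochberg adjusted p of 0.05 for genotype over all stages, where 0.0154% of all transcripts did, and 1 had an unadjusted p under 0.05, where 7.63% did. DESeq2 and limma voom called none of the 8 in this or any of the comparisons of genotype and stage below. For genotype over all stages DESeq2 called 189 of all 45394 transcripts and limma voom 42. Over the comparisons DESeq2 called from 17 (genotype by stage interaction) to 301 (genotype at 12 somites). The range of limma voom was from 0 (difference of slopes) to 42. The CPM of mutants and of wild-type embryos overlapped for each of the 8, as for all but 0.0022% of the transcripts. The median change of the 8, mutant minus wild type, was -0.11 log2 units beside -0.012 over all transcripts, with 2 above 0 and 6 below.

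ENSMUST00000052631 (listed as Snai1) was the transcript with the unadjusted p under 0.05. It had a median of 9.87 TPM in wild type (6.67 to 13.6) and 7.18 TPM in mutants (5.26 to 13.1). Its log2 fold change was -0.29 (SE 0.13, 95% interval -0.56 to -0.03, edgeR adjusted p = 0.612). ENSMUST00000014917 (listed as Dll1) had a median of 13.5 TPM in wild type (6.15 to 17.2) and 8.56 TPM in mutants (6.30 to 16.3). In TPM all mutants were inside the wild-type range. On log2 CPM mutant embryo 2 at 14 somites (5.93) and mutant embryo 4 at 16 somites (5.87) were above all wild-type embryos (highest 5.83). The log2 fold change of the Dll1-listed transcript was -0.23 (SE 0.13, 95% interval -0.50 to 0.04, edgeR adjusted p = 0.738), and without the 2 embryos that stood apart -0.26 (-0.50 to -0.02, edgeR adjusted p = 0.608). ENSMUST00000031555 (listed as Lfng) had a median of 6.10 TPM in wild type (2.14 to 12.1) and 3.30 TPM in mutants (1.42 to 9.44). Its log2 fold change of -0.45 had the widest interval of the 8, from -1.12 to 0.22 (SE 0.33, edgeR adjusted p = 0.823), and it ran from -0.60, without mutant embryo 4 at 16 somites, to -0.26, without wild-type embryo 1 at 14 somites.

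For ENSMUST00000020118 (listed as Dusp6) the log2 fold change was -0.19 (95% interval -0.47 to 0.09, edgeR adjusted p = 0.821), and the medians were 36.2 TPM in wild type and 26.2 TPM in mutants. The estimates for the other 4 were nearer to 0. ENSMUST00000024543 (listed as Hes7) had 0.11 (-0.48 to 0.69) and ENSMUST00000028288 (listed as Notch1) 0.11 (-0.19 to 0.40). ENSMUST00000023171 (listed as Hes1) had -0.01 (-0.39 to 0.37) and ENSMUST00000052915 (listed as Axin2) -0.03 (-0.40 to 0.34). The adjusted p of these 4 by edgeR lay between 0.941 and 0.999. The interval of the Hes7-listed transcript was the widest of these 4 and includes a rise of 0.69 log2 units.

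**Figure D5:**
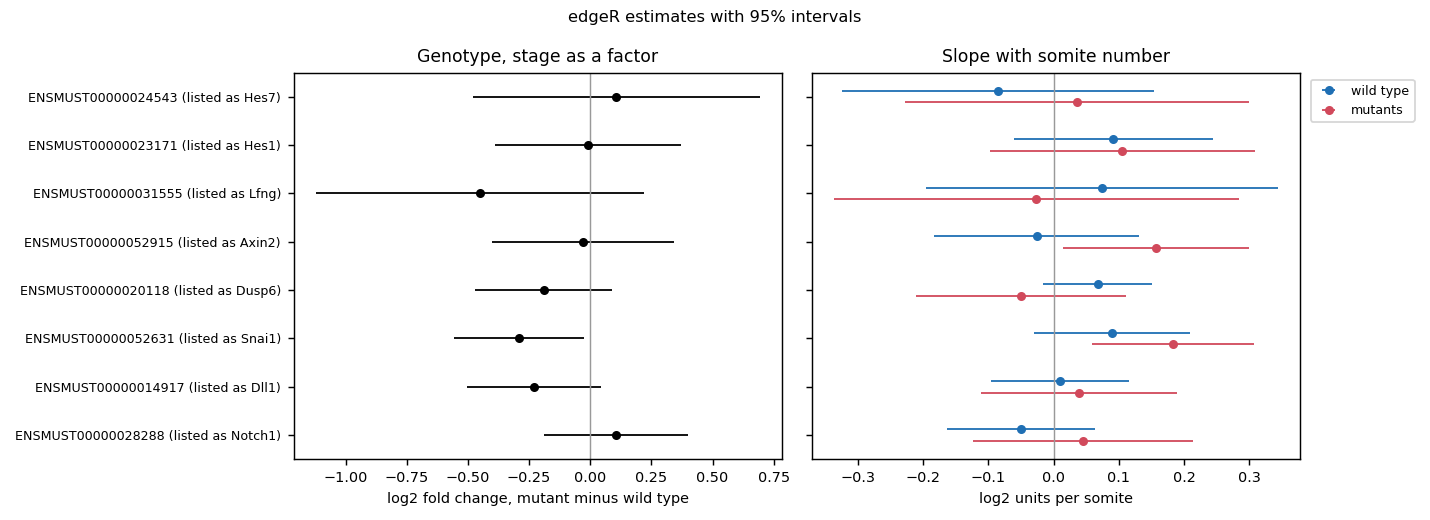
Left, log2 fold change of each transcript, mutant minus wild type, over all stages; right, slope in log2 units per somite in wild type (blue) and mutants (red); bars are 95% intervals from edgeR. On the left the interval of the Snai1-listed transcript alone excludes 0 (-0.56 to -0.03), without passing the adjusted threshold, and the Hes7-listed and Lfng-listed transcripts have the widest intervals.

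At single stages none of the 8 passed at 12 somites (0% of all transcripts did), at 13 or 14 somites (0.00661% at each) or at 16 somites (0%), by edgeR with adjusted p under 0.05. Unadjusted, none of the 8 had p under 0.05 at 12, 13 or 14 somites, where 3.83%, 3.39% and 3.1% of all transcripts did, and 1 did at 16 somites, where 6.13% did. That one was ENSMUST00000020118 (listed as Dusp6), at 38.9 ± 5.44 TPM in wild type (SD, n = 4) and 25.2 ± 11.1 TPM in mutants (SD, n = 5). Its log2 fold change at 16 somites was -0.49 (SE 0.23, edgeR adjusted p = 0.786), and it ran from -0.70 to -0.31 when single embryos were left out. The value of -0.31 came without mutant embryo 1. The unadjusted p was under 0.05 in 10 of these 27 fits. Without both embryos that stood apart the log2 fold change was -0.30 (edgeR adjusted p = 0.943), and the unadjusted p was not under 0.05. ENSMUST00000031555 (listed as Lfng) was at 7.24 ± 3.44 TPM in wild type and 4.10 ± 3.28 TPM in mutants at 16 somites, a log2 fold change of -0.70 (SE 0.57, edgeR adjusted p = 0.907) that was -1.20 without mutant embryo 4 and -0.47 without wild-type embryo 4. The interaction of genotype and stage passed for none of the 8 and for 0.00661% of all transcripts, and unadjusted for none of the 8 and 2.95%.

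Stage was examined as a slope of log2 level per somite within each genotype. In the 16 wild-type embryos none of the 8 passed by edgeR, against 0.0218% of all transcripts, and none had an unadjusted p under 0.05, against 2.74%. The wild-type slopes lay between -0.09 for ENSMUST00000024543 (listed as Hes7) and 0.09 for ENSMUST00000023171 (listed as Hes1). Without 16 somites the slope of the Hes1-listed transcript was -0.13, and all 8 wild-type slopes were below 0. In the 11 mutants none of the 8 passed, against 0.0255%, and 2 had an unadjusted p under 0.05, against 6.07%. ENSMUST00000052631 (listed as Snai1) had group means of 5.90, 7.14, 8.17 and 9.35 TPM in mutants at 12, 13, 14 and 16 somites and a slope of 0.18 per somite (SE 0.06, edgeR adjusted p = 0.756). In wild type its means were 10.2, 9.81, 8.90 and 12.2 TPM. ENSMUST00000052915 (listed as Axin2) had mutant means of 5.67, 7.95, 12.4 and 9.20 TPM and a slope of 0.16 (SE 0.07, edgeR adjusted p = 0.80). The difference of slopes between genotypes passed for none of the 8 and 0% of all transcripts, and unadjusted for none of the 8 and 4.58%.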

How the data were processed

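Total RNA of 27 single tailbuds was analysed, and groups come from the sample titles. The authors deposited 1 table per library, which per the file headers holds for each transcript an estimated count and a TPM value. Per the submitters' processing notes Salmon 1.5.2 and Trim Galore 0.5.0 were used, with the builds mm10 and hg38, whose roles are not stated. Of the deposited estimated counts above 0, 11.8% were whole within 0.001. All values are of single transcripts, and a read that fits several transcripts is shared out among them by the estimate.

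The members, lists and tests were chosen with earlier results of these data known. Counts were rounded, filtered with filterByExpr (45394 of 89010 transcripts kept), scaled with TMM factors (0.884 to 1.22) and tested with edgeR 4.0.16 in R 4.3.3 with Benjamini-Hochberg adjustment. Slopes were fitted in each genotype apart. Deviations were residuals of log2 CPM (prior count 2) from 8 group means, and correlations were tested with 100000 permutations within groups. Alternatives were DESeq2 1.42.0, limma 3.58.1 voom, other filters, scalings and units, and left-out embryos. Procedures were tested on simulated data. Gene lists of the Notch, Wnt and FGF pathways, cell type markers, the 3 most alike transcripts of each member and the level of Jarid2 could not be given, because the name tables match 0 of the transcript identifiers. All 8 members are named. Figures used Python 3.11.15 and matplotlib 3.10.9.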

Additional observations from a re-analysis of the deposited data

Results flagged for a closer look

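In groups of 4 or 5 embryos, 40 comparisons of a group and a transcript were searched for an embryo far from all others of its group, and 3 were found where chance gives 2.0. ENSMUST00000052915 (listed as Axin2) was at 4.87 log2 CPM in mutant embryo 4 at 16 somites, against 5.6 to 5.89 in the other 4, or 5.85 TPM against 9.20 to 11.0. The same embryo was high for ENSMUST00000014917 (listed as Dll1), at 5.87 log2 CPM against 5.08 to 5.26, or 14.2 TPM against 6.74 to 8.79. ENSMUST00000052631 (listed as Snai1) was at 3.56 log2 CPM in wild-type embryo 3 at 13 somites, against 4.02 to 4.12 in the other 3. In TPM that embryo was closer to its group, at 8.73 against 9.13 to 10.8.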

How the results depend on the processing

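None of the 8 was called for genotype or stage in 592 tests under alternatives (lowest adjusted p 0.217) or 1728 with 1 embryo left out (0.484). In the main tests the lowest was 0.612. The largest call over all transcripts under these alternatives was 301 of 45394, by DESeq2 at 12 somites. From 4 to 5 were wide under every alternative, but not always the same ones. In wild type alone and without 16 somites Dll1 was wide (percentiles 91.7 and 91.5) and Dusp6 was not (81.8 and 86.1). In mutants alone Axin2 was not wide (81.5). The count of co-varying pairs, 3 of 28, was 5 on variance-stabilised counts, 6 without the 2 embryos that stood apart, 7 by Spearman's rho and 8 with a replicate block, and the cause was not tested. The replicate block also removed differences between embryo numbers, while its permutations kept to the groups only. Its p-values can therefore be too small, and its count does not compare with the 3. The count was 0 with fewer samples: wild type alone, mutants alone, or without 16 somites, a choice made after seeing the data. The 3 pairs kept an r of at least 0.696 in these. With 1 embryo left out the count ran from 2 to 6, with 6 without mutant embryo 1 at 16 somites.

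Embryo numbers showed no clear pairing. Same-numbered embryos of different groups had a median r of 0.009 (76 pairs), others 0.002 (238 pairs). Of the 27, 6 correlated best, outside their group, with an embryo of their own number, and the number expected by chance was not computed. A litter or batch not numbered alike could not show here. The replicate block called none of the 8.

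Some signs turned, and the cause was not tested. For genotype, Hes7 was -0.027 without the 2 embryos, -0.117 with the replicate block and -0.022 without 16 somites; Hes1 0.033 with numeric somites; Axin2 0.032 with the replicate block and 0.212 at 16 somites alone; Notch1 -0.035 without the 2 embryos. Without 16 somites 5 wild-type slopes turned: Snai1 from 0.089 to -0.157, Hes1 from 0.091 to -0.132, Lfng from 0.074 to -0.245, Dusp6 from 0.068 to -0.037 and Dll1 from 0.01 to -0.084. The replicate block, with the limit on its p-values given above, added the pairs of Lfng with Hes7, Snai1, Notch1 and Dll1, and of Snai1 with Dll1 (r from 0.589 to 0.719). It gave Lfng with Axin2 -0.367. Among pairs, 20 of the 28 kept their sign without the 2 embryos. On log2(TPM + 1), in each genotype alone and without 16 somites, 24 did. The r of Axin2 and Dll1 was 0.004 on TPM, 0.248 in wild type and 0.141 without 16 somites. With 1 embryo left out, the ranges were -0.098 to 0.062 for Hes1, -0.102 to 0.081 for Axin2, -0.122 to 0.02 for the wild-type slope of Axin2 and -0.366 to 0.157 for the r of Axin2 and Dll1.

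Groups of 2 mutants limit the single stages, and gene sums were not run because no names matched.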
